A study of Mus musculus with 46 samples.

Results

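R6/2 mice, a fast model of Huntington disease, were compared with wild-type littermates at 6 weeks of age in glial progenitor cells sorted from the striatum by an EGFP reporter of PDGFRA. The 6-week comparison comprised 11 of the 46 libraries of the series, 6 from R6/2 and 5 from wild-type mice, and was chosen by genotype and age alone. All mice of both groups carried the PDGFRA-EGFP reporter. Each library was a pool: the striata of a litter were combined by genotype, 3 to 4 mice a group per the labels' protocols, after the subventricular zone had been cut away, and living EGFP-positive cells were collected by flow sorting. RNA was sequenced as polyadenylated RNA, without a record of the strand. A later age of the R6/2 line, 12 weeks, comprised 14 pools, 7 for each genotype, and serves here for the change with age. Total expected counts were 34943456 to 45253247 in R6/2 and 36402167 to 48634226 in wild-type pools.

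Glial progenitors, also called oligodendrocyte progenitors, divide throughout life and mature into oligodendrocytes, the cells that wrap axons in myelin. PDGFRA, a receptor for platelet-derived growth factor, marks the progenitor stage and is lost as the cells mature. R6/2 mice carry a fragment of the human huntingtin gene with a long CAG repeat, expressed in many cell types, so a difference in sorted glia can come from the glia or from their surroundings. Lower myelin and cholesterol synthesis genes and higher interferon-stimulated genes are the broad pattern in these pools, and those 3 lists (40, 26 and 84 genes) were set aside here so that the other genes could be described. As a description of what was put aside, calls were lower for 25 of 40 tested myelin genes and 4 of 25 cholesterol genes. They were higher for 22 of 64 interferon-stimulated genes. Of all genes tested, 2.33% were called in each direction.

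The labelled cell type was checked first. The receptor gene Pdgfra itself was measured at 31.7 to 99.0 CPM (counts scaled to library size, and between libraries by trimmed mean of M values, TMM) in wild-type and 21.1 to 70.4 CPM in R6/2 pools, and did not pass the test (log2 fold change -0.48 ± 0.32, adjusted p = 0.504). Summed over 26 progenitor genes, the level was 1163 to 2049 CPM in wild-type and 1361 to 2010 CPM in R6/2 pools. The myelin list alone took 18.9 to 19.4% of all counts in wild-type and 13.1 to 15.8% in R6/2 pools. The pools therefore held much RNA of mature oligodendrocytes beside that of progenitors, and are called sorted pools below. In such bulk samples fewer cells of a type and less RNA per cell cannot be told apart.

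The genotype labels were checked with the gene Gm12695, which lies where the R6/2 transgene entered the genome (chromosome 4, 96723647 to 96785186, GRCm38). It had 0 counts in all 33 libraries of other genotypes of the series and 146 to 368 counts in each of the 13 R6/2 libraries. In the 6-week R6/2 pools it was at 4.98, 7.13, 7.34, 7.44, 6.44 and 7.8 CPM, at least 431-fold above a floor of 3 counts over the wild-type group. Of 14 other tested genes within 2 Mb, 1 was called, Cyp2j12, a cytochrome P450 gene, beside 4.66% of all genes. Mouse Htt, which does not measure the human fragment, was at 3.33 to 8.72 CPM in wild-type and 4.71 to 12.1 CPM in R6/2 pools and did not pass (0.38 ± 0.29, adjusted p = 0.586).

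Several library properties moved with genotype. The TMM factor, which corrects for a few genes taking a large share of the counts, was 1.02 to 1.13 in R6/2 and 0.912 to 0.93 in wild-type pools, with no overlap, so a gene that held its share of the library reads as slightly lower in R6/2 after scaling. With library sizes alone in place of TMM, the median log2 fold change of all genes moved from 0.02 to 0.23, and 91.3% rather than 49.9% of calls were higher. Directions of lower genes below are therefore relative to the typical gene. R6/2 replicate 1 stood apart from the other pools, with 2.39% mitochondrial mRNA (0.677 to 1.01% in the 10 others) and the most extreme value on the first principal component. R6/2 replicate 1 and wild-type replicate 1 had 0 CPM of Y-linked transcripts, against up to 151 and 155 CPM in the other pools.

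**Figure D1:**
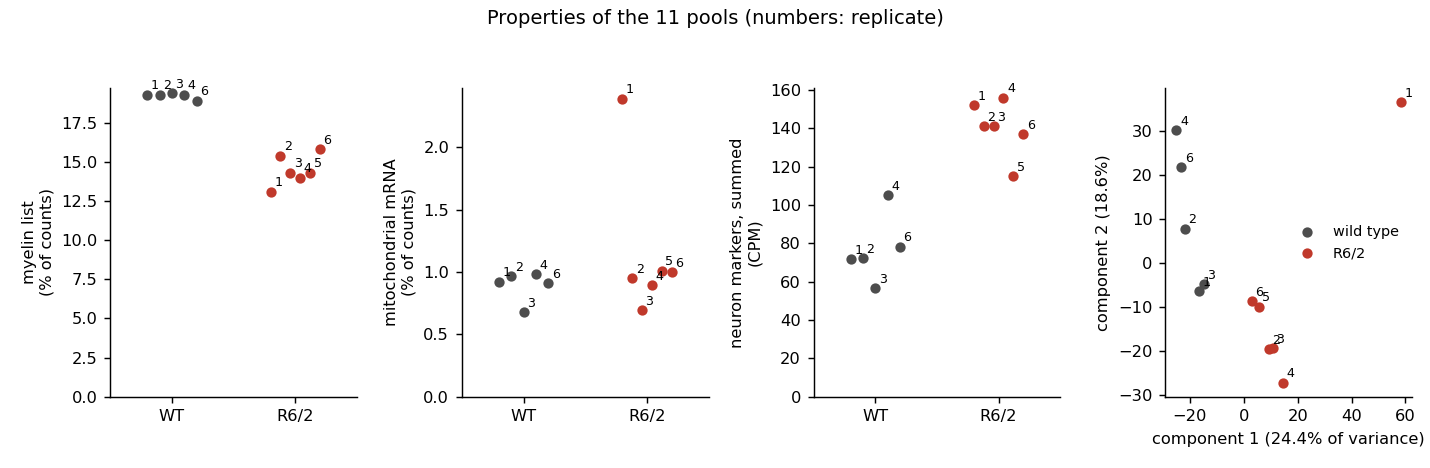
Share of counts on the myelin list, share of mitochondrial mRNA, summed CPM of 15 neuron markers, and the first 2 principal components of log2 CPM, for each wild-type (grey) and R6/2 (red) pool, numbered by replicate. The myelin share was 13.1 to 15.8% in R6/2 and 18.9 to 19.4% in wild type, and R6/2 replicate 1 lies apart in mitochondrial share (2.39%) and on component 1.

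Over all expressed genes, 695 of 14912 tested (4.66%) were called at an adjusted p below 0.05, 347 higher (2.33%) and 348 lower (2.33%) in R6/2. Here and below, adjusted p values are those of edgeR's quasi-likelihood test with Benjamini-Hochberg adjustment over all genes tested, and each log2 fold change is followed by its standard error. The values of the 2 groups did not overlap for 905 genes (6.07%), among them 564 of the genes called. Outside the 3 lists the calls comprised 325 rises and 319 falls. Without R6/2 replicate 1 these counts were 443 and 506. Of the 644 genes, 317 (168 higher and 149 lower) were called in each of the 11 fits that left out 1 pool.

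The 2 directions involved different kinds of genes. Genes called higher had low to moderate levels, with a median of 24.8 CPM, and large changes, with a median log2 fold change of 0.86 and 130 genes at least 2-fold higher. Genes called lower were abundant, with a median of 184 CPM, and changed less, with a median of -0.55 and 24 genes at least 2-fold lower. Among genes with a mean of 100 CPM or more, 210 were lower and 49 higher of 1752 tested (14.8% called). Between 10 and 100 CPM 93 were lower and 193 higher of 6579 (4.35%), and under 10 CPM 16 were lower and 83 higher of 6452 (1.53%). Without R6/2 replicate 1 the medians were 30.1 CPM for genes called higher and 186 CPM for genes called lower. With library sizes alone, each of the 325 higher genes was still called, while 113 of the 319 lower genes were still called lower and 0 changed sign. Of the 644, 624 were protein-coding, and 7 long intergenic RNAs were higher while 0 were lower.

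**Figure D2:**
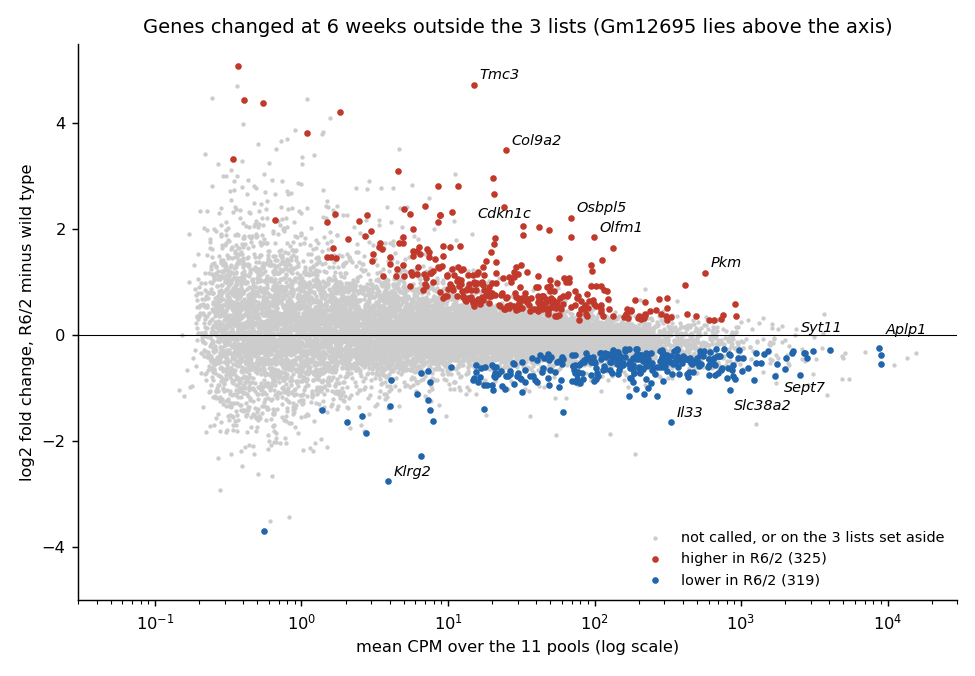
Log2 fold change (R6/2 minus wild type) against mean CPM over the 11 pools on a log axis, 1 point per gene tested. The 325 genes called higher (red) sit mostly at low to moderate levels with large changes and the 319 called lower (blue) at high levels with small ones. Gm12695 lies above the axis.

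Promoter sequence was read for genes that the results below turn on: B2m and Cd59a, which changed in opposite directions and both hold a match to an interferon response element, and Osbpl5, the gene with the smallest adjusted p. The windows are bases before the RefSeq start site on GRCm38.p6, left free of bases that the gene model covers, and are written on the gene's strand. B2m is at chr2:122147437-122147685 (plus strand), Cd59a at chr2:104095551-104095800 (plus strand) and Osbpl5 at chr7:143757009-143757258 (minus strand). Capitals mark a match on either strand to GAAA, any 2 bases and GAAA again in B2m and Cd59a and to the E-box CACGTG in Osbpl5.
B2m: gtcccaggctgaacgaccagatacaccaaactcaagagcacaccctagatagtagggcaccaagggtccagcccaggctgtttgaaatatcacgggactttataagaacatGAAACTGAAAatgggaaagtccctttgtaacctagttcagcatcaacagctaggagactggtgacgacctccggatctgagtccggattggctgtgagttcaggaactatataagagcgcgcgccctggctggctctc
Cd59a: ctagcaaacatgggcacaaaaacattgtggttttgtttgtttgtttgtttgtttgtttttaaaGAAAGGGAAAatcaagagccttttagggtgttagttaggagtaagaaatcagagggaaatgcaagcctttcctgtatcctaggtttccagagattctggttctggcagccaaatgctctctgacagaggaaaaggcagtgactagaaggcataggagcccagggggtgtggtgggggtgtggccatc
Osbpl5: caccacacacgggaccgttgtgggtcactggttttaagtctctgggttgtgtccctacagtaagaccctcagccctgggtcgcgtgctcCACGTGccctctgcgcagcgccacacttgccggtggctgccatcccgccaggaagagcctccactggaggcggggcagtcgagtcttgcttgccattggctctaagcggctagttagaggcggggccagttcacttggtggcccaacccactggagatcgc

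The share of promoters with each motif was counted in the 250 bases before the start site. Of 14912 genes tested, 10798 had a window. The interferon response element was found in 2.94% of these, in 4.3% of the genes called higher and in 3.91% of the genes called lower outside the 3 lists. ATCAAAG, bound by TCF/LEF factors such as the TCF7L2 of the series title, was found in 2.75%, 4.3% and 3.52%, and GTGGGAA, bound by the Notch effector RBPJ, in 6.49%, 6.64% and 4.69%. The E-box CACGTG was found in 9.81%, 8.59% and 8.2%. Each group of called genes held 256 windows, the letters were searched on both strands, and a match is a description of letters and not of binding. The transcription factor gene Tcf7l2 was at 26.8 to 45.4 CPM in wild-type and 28.3 to 45.3 CPM in R6/2 pools and did not pass (0.13 ± 0.18, adjusted p = 0.793).

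The largest rises among genes reaching 5 CPM included several that were at low levels in wild-type pools. Col9a2, a chain of type IX collagen known from cartilage, was at 3.72, 3.17, 2.82, 6.38 and 2.7 CPM in wild-type pools and at 30.7 to 53.1 CPM (median 43.3) in R6/2. The lowest R6/2 pool lay above the highest wild-type pool, and the gene was 11.2-fold higher (3.49 ± 0.25, adjusted p = 7.59e-06). It was the single called gene among 34 tested collagen chains, of which 10 had a positive and 24 a negative log2 fold change (median -0.36). Of the 34, 3 were called higher without R6/2 replicate 1 and 4 with library sizes alone. With the mean level of other cell types' markers as a covariate 1 was higher and 4 were lower. Tmc3, of the transmembrane channel-like family, was at 1.48, 3.28, 0.304, 0 and 0 CPM in wild type and 20.8 to 40.1 CPM (median 23.1) in R6/2 (4.73 ± 0.87, adjusted p = 0.00768). Dok7, an adaptor of the muscle-specific kinase at the neuromuscular junction, was at 6.21, 7.88, 5.76, 8.39 and 7.13 CPM in wild type and 26.4 to 49.6 CPM in R6/2, which was 5.38-fold higher (adjusted p = 7.59e-06).

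Osbpl5, which encodes a lipid-transfer protein of the oxysterol-binding family (chromosome 7, 143688762 to 143756985), had the smallest adjusted p of all genes. It was at 21.4, 25.3, 28.0, 20.8 and 21 CPM in wild-type pools and at 89.1, 110, 117, 117, 108 and 110 CPM in R6/2. The groups lay far apart, and the fold was 4.65 (2.22 ± 0.11, adjusted p = 5.02e-07, and 9.31e-06 at most with 1 pool left out). Other large rises were those of Slc30a2, a zinc transporter (3.11 ± 0.58), Tnfrsf13c, the receptor of the B-cell survival factor BAFF (2.82 ± 0.33), Lad1, an anchoring filament protein (2.82 ± 0.38), Acy3, an aminoacylase (2.67 ± 0.26), and the non-coding or predicted genes Gm2115 (2.44 ± 0.38) and Gm29455 (2.39 ± 0.25). Each of these was called in all 11 fits that left out 1 pool.

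Other genes with large rises were Olfm1, Uchl1, Sez6 and Tmem59l. Olfm1, a secreted glycoprotein of the nervous system, was at 50.2, 46.6, 43.9, 33.5 and 31.3 CPM in wild-type and 132 to 172 CPM (median 148) in R6/2 pools, 3.6-fold higher (1.85 ± 0.13, adjusted p = 7.59e-06). Uchl1, a ubiquitin hydrolase abundant in neurons, was at 13.6, 7.51, 13.1, 15.0 and 10.4 CPM against 38.7 to 60.6 CPM (2.07 ± 0.18, adjusted p = 6.06e-05). Sez6, a neuronal membrane protein, rose from 4.34 ± 2.51 to 33.8 ± 12.8 CPM (SD, n = 5 and 6), and Tmem59l, a membrane protein of the Golgi, from 3.35 ± 1.54 to 16.7 ± 8.1 CPM. The groups did not overlap for any of these 4 genes.

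The list of neuropeptides and granins, the cargo and processing enzymes of dense-core vesicles, had 4 of 13 tested members higher and 0 lower, against 2.33% of all genes in each direction, with a median log2 fold change of 0.30 where that of all genes was 0.02. The 4 were Scg5, a chaperone of the prohormone convertase PCSK2 (63.0 ± 4.95 against 121 ± 26.6 CPM, adjusted p = 0.00196), Pcsk2 itself (12.6 ± 5.1 against 28.4 ± 4.64 CPM, adjusted p = 0.00864), Scg3 (0.49 ± 0.11, adjusted p = 0.0256) and Cpe, the carboxypeptidase that trims prohormones (0.40 ± 0.10, adjusted p = 0.0475). Calls for Scg3 and Cpe were kept in 4 and 2 of the 11 fits that left out 1 pool (adjusted p of up to 0.0734 and 0.123 without wild-type replicate 2). Sez6, Scg5 and Pcsk2 kept theirs in all 11. With the mean level of other cell types' markers as a covariate 3 of the 13 were called higher and 1 lower. Under another scaling, relative log expression, 3 were higher and 0 lower. In R6/2 pools Scg5 ran from 96.8 to 171 CPM, highest in replicate 1, and all lay above the wild-type range of 55.8 to 69.3 CPM.

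The tested markers of neurons moved in the same direction as these genes. Of all genes, 2.33% were called in each direction. Of 15 neuron markers 7 passed the filter, and 2 were called higher, Syn1, a synaptic vesicle protein (32.3 ± 4.34 against 54.2 ± 9.17 CPM, adjusted p = 0.00888), and Tubb3, a neuronal tubulin (41.2 ± 15.9 against 82.6 ± 19.2 CPM, adjusted p = 0.0308, kept in 4 of 11 fits). Summed over the 15 markers the level was 56.6 to 105 CPM in wild-type and 115 to 156 CPM in R6/2 pools, without overlap, and Syn1 and Tubb3 made up most of it. All 7 tested neuron markers and all 11 tested neuroblast markers, lists that share Tubb3 and Stmn2, had a positive log2 fold change. Members that did not pass the filter are not in this count. Among them, the neuroblast marker Dlx5 had means of 0.145 CPM in wild-type and 0.0843 CPM in R6/2 pools. Of the neuron markers not called, Snap25 had means of 1.57 and 2.41 CPM and Gad1 1.2 and 1.43 CPM in wild-type and R6/2 pools, and the neuroblast marker Dcx had 1.41 and 6.17 CPM (adjusted p = 0.131). Neuron markers that did not pass the filter were near 0 in both groups. In wild-type and R6/2 pools Rbfox3, the antigen NeuN, had means of 0.00519 and 0.142 CPM. The glutamate transporter Slc17a7 had 0.0623 and 0.118 CPM, and neurofilament Nefl 0.156 and 0.161 CPM. Means were also higher in R6/2 for Thy1, Nefh and Camk2a. They were lower in R6/2 for Gad2 (0.484 and 0.276 CPM) and Slc32a1 (0.0148 and 0 CPM). Neuroblast markers, which share Tubb3, summed to 62.3 to 94.8 and 97.7 to 165 CPM, with 1 of 11 tested called higher. The summed striatal projection neuron markers ran the other way, at 251 to 295 CPM in wild type and 162 to 204 CPM in R6/2. Adcy5 made up most of this sum, and the other members did not fall as a set. Of 13 tested, 6 had a positive and 7 a negative log2 fold change. Adcy5 was called lower and Arpp21 called higher (1.75 ± 0.32, adjusted p = 0.00708, kept in all 11 fits). Pdyn was at 0 in all 11 pools. The part of neuronal RNA in the rises of Olfm1, Uchl1, Sez6 and the granin genes was not tested beyond these values.

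Imprinted genes, expressed from 1 parental copy, had 6 of 28 tested members higher and 0 lower, beside 2.33% of all genes in each direction. Cdkn1c, an inhibitor of the cell cycle, was at 17.6, 17.2, 20.0, 13.5 and 8.85 CPM in wild-type pools and at 55.2 to 75.1 CPM (median 62.4) in R6/2, 4.11-fold higher (2.04 ± 0.18, adjusted p = 6.06e-05). The groups lay apart, and Cdkn1c was the single called gene among 40 tested cell cycle genes. Nap1l5, a histone chaperone relative, rose from 206 ± 13.2 to 330 ± 37.2 CPM (adjusted p = 0.00101), Ndn, the growth suppressor necdin, from 51.3 ± 8.16 to 91.3 ± 17.5 CPM (adjusted p = 0.0049), and Mest, a hydrolase-like gene, from 8.24 ± 2.54 to 18.1 ± 3.18 CPM (adjusted p = 0.00899). Peg3, a zinc finger gene, and Nnat, a small membrane protein, were also higher (0.62 ± 0.14 and 1.09 ± 0.27) but their groups overlapped, and each call was kept in 4 of 11 fits that left out 1 pool. Over the 28 imprinted genes the median was 0.04, beside 0.02 for all genes, and 22 members were not called.

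Glycolysis genes showed the same one-sided count, 6 of 29 tested higher and 0 lower, with a median of 0.17. Pkm, which makes pyruvate kinase, the last step of glycolysis, was at 328, 314, 315, 338 and 379 CPM in wild-type and 712, 657, 815, 817, 815 and 723 CPM in R6/2 pools. It was 2.26-fold higher (1.18 ± 0.08, adjusted p = 7.59e-06), with every R6/2 pool above every wild-type pool. Eno1, an enolase, was at 230 to 336 CPM against 391 to 648 CPM (0.95 ± 0.14, adjusted p = 0.00226), and Ldhb and Gpi1 rose by less (0.49 ± 0.10 and 0.39 ± 0.08). Pgk1 and Tpi1 were higher by 0.33 ± 0.07 and 0.38 ± 0.10 (adjusted p = 0.0248 and 0.0463). Gapdh, at 559 to 690 and 638 to 1046 CPM, did not pass (0.28 ± 0.12, adjusted p = 0.239). Without R6/2 replicate 1, 9 of 29 were called higher.

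Antigen presentation by class I molecules of the major histocompatibility complex (MHC), a known target of interferon, had 8 of 19 tested members higher and 0 lower, with a median log2 fold change of 1.16. B2m, the light chain shared by class I molecules, was at 30.5, 26.9, 20.7, 37.5 and 18.8 CPM in wild-type and 30.1 to 71.4 CPM in R6/2 pools (0.92 ± 0.22, adjusted p = 0.0311). R6/2 replicate 2 was the lowest of its group and lay within the wild-type range, and the call was kept in 5 of 11 fits (adjusted p of up to 0.0838). The heavy chain gene H2-D1 was at 24.9, 20.0, 20.4, 37.0 and 39.5 CPM against 39.2 to 155 CPM (median 108) in R6/2 (1.86 ± 0.32, adjusted p = 0.00501), again with R6/2 replicate 2 lowest. H2-K1 (1.29 ± 0.28), the nonclassical H2-T23 (1.48 ± 0.28), the peptide transporter subunit Tap2 (1.28 ± 0.22), the proteasome activator Psme1 (0.99 ± 0.14), the immunoproteasome subunit Psmb10 (1.16 ± 0.20) and the trimming peptidase Erap1 (1.29 ± 0.31) were the others called. Tap1 and Psmb8, partners of Tap2 and Psmb10, stayed at low levels (1.48 ± 0.985 against 1.97 ± 1.15 CPM, and 0.589 ± 0.671 against 1.45 ± 0.869 CPM) and did not pass (adjusted p = 0.809 and 0.418). Of 16 list members with a promoter window 3 held the interferon response element, B2m and H2-T23 among the 7 called.

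Not all immune genes rose, though few were called on the 2 lists that follow. The share of all genes was 2.33% in each direction. The complement and acute-phase list had 1 of 17 higher, Serpina3n, a protease inhibitor (2.89 ± 0.741 against 9.2 ± 2.75 CPM, adjusted p = 0.00395), and 1 lower, Cd59a, which blocks the complement pore and whose promoter is shown above. Cd59a was at 48 to 76.1 CPM in wild-type and 26.5 to 47.4 CPM in R6/2 pools (-0.93 ± 0.17, adjusted p = 0.00708). Cytokine genes and their receptors had 0 higher and 2 lower of 34 tested. With library sizes alone the cytokine list had 3 higher and 2 lower, and the complement list 3 higher and 1 lower. Il33, an alarmin made by oligodendrocytes and their progenitors, was at 390, 728, 415, 445 and 682 CPM in wild-type and 127 to 196 CPM (median 177) in R6/2 pools, 3.12-fold lower with no overlap (-1.64 ± 0.18, adjusted p = 0.000251). Il1rap, a shared chain of its receptor, was lower too (780 ± 32.2 against 465 ± 118 CPM), with R6/2 replicate 1 lowest at 227 CPM, and its call was kept in 7 of 11 fits (adjusted p of up to 0.0646 without wild-type replicate 2). Markers of microglia (16 tested), red blood cells (5), ependyma (6), fibroblasts (13), astrocytes (16), mural cells (12) and endothelium (14) had 0 calls, and the groups overlapped in each summed level. Log2 fold changes were negative for 12 of 13 fibroblast markers (median -0.34, with 1 called lower without R6/2 replicate 1) and for 12 of 16 microglia markers. All 5 red blood cell markers were positive. Positive and negative signs were 6 and 10 for astrocytes, 6 and 6 for mural cells, 9 and 5 for endothelium and 2 and 4 for ependyma.

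The Notch pathway, by which neighbouring cells hold each other in an immature state, had 5 of 26 tested members higher and 0 lower. The share of all genes was 2.33% in each direction. The ligand gene Dll1 was at 6.4 to 19.3 CPM in wild-type and 19.5 to 26.0 CPM in R6/2 pools (1.13 ± 0.25, adjusted p = 0.0183). The receptor gene Notch1 was at 17.4, 8.3, 7.0, 7.25 and 8.85 CPM against 17.4, 22.6, 20.8, 21.8, 19.2 and 15.2 CPM (1.00 ± 0.23, adjusted p = 0.0271). Wild-type replicate 1 lay within the R6/2 range, and the Notch1 call was kept in 4 of 11 fits (adjusted p of up to 0.0767 without wild-type replicate 2), that of Dll1 in 9 (up to 0.0569). The co-activator Maml2 was at 1.14 to 2.7 CPM and 6.22 to 7.81 CPM, 3.33-fold higher with no overlap (1.74 ± 0.25, adjusted p = 0.0019). The target genes Nrarp and Hey1 were higher by 1.24 ± 0.26 and 1.08 ± 0.25 (adjusted p = 0.0163 and 0.0271), with Hey1 kept in 6 of 11 fits. The target Hes5 and the ligand Jag1 did not pass (0.73 ± 0.36 and 0.74 ± 0.22, adjusted p = 0.33 and 0.0866). The list's median was 0.18.

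Wnt and bone morphogenetic protein genes showed no such count, beside 2.33% of all genes called in each direction. Of 50 tested Wnt genes 1 was higher, Rnf43, a membrane ligase that removes Wnt receptors (0.71 ± 0.14, adjusted p = 0.0108), and 2 were lower, Wnt5b (-1.84 ± 0.43, kept in 7 of 11 fits) and Dvl1 (-0.46 ± 0.12, kept in 2 of 11). Of 55 genes of the bone morphogenetic protein and TGF-beta pathway Ltbp4, which binds latent TGF-beta, was higher (14 ± 0.97 against 27.6 ± 4.15 CPM, adjusted p = 0.000905) and the inhibitor Smad7 lower (142 ± 13.3 against 90.0 ± 13.5 CPM, adjusted p = 0.0049). Receptor tyrosine kinases and growth factors had 0 higher and 4 lower of 73: the growth factor Ptn (-0.40 ± 0.08), Tyro3 (-0.58 ± 0.13), the neuregulin receptor Erbb3 (-0.64 ± 0.16) and the stem cell factor receptor Kit. With library sizes alone 0 of these 4 were called lower and 3 other members were called higher. Kit was at 16.5, 16.7, 16.3, 29.8 and 53.9 CPM in wild-type and 4.63 to 13.8 CPM in R6/2 pools, without overlap (-1.39 ± 0.37, adjusted p = 0.0488), and its call was lost in each of the 11 fits that left out 1 pool (adjusted p of up to 0.141). Erbb3 kept its call in 4 of 11 fits and Tyro3 in 9.

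**Figure D3:**
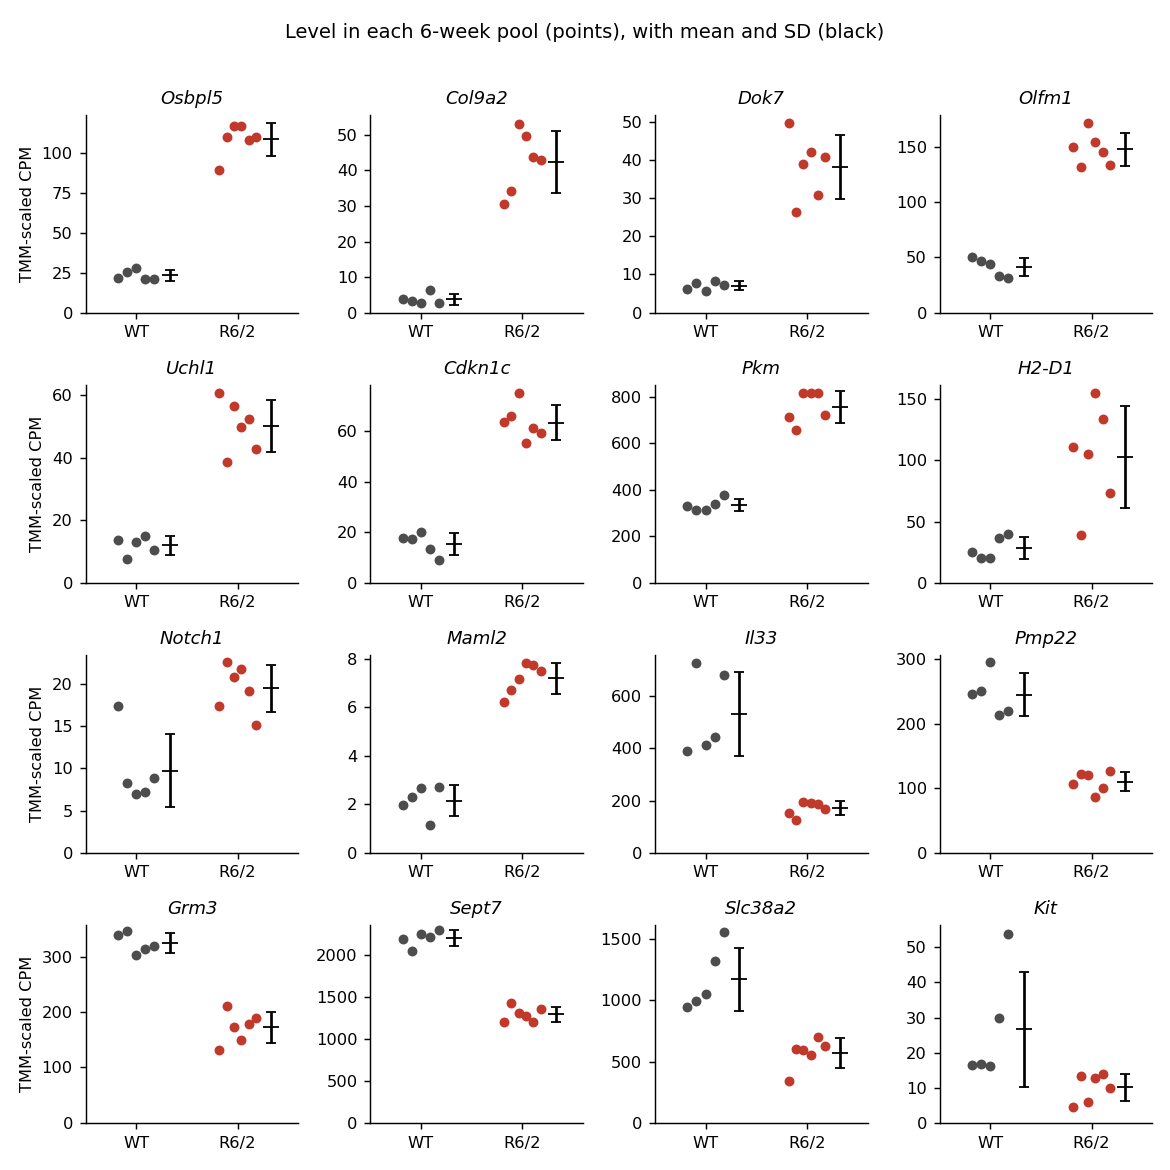
TMM-scaled CPM in each wild-type (grey) and R6/2 (red) pool for 16 genes described in the text, with the mean and SD of each group in black; axes start at 0. The groups lie apart for Osbpl5, Col9a2, Pkm, Il33 and Sept7, while H2-D1 and Notch1 overlap in 1 pool or more.

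Genes that distinguish states of mature oligodendrocytes changed in both directions, where 2.33% of all genes were called in each direction. Of 24 tested, 3 were higher and 8 lower in R6/2, the latter including Car2, Mal and Trf of the myelin list set aside, with a median log2 fold change of -0.27 that became -0.05 with library sizes alone, which left 6 of the lower calls. S100b, a calcium-binding protein, was at 83.9, 70.0, 70.0, 44.5 and 43.5 CPM in wild-type and 161 to 240 CPM in R6/2 pools, 3.12-fold higher (1.64 ± 0.19, adjusted p = 0.000352). Anxa5 and S100a6, also calcium-binding, were higher by 0.94 ± 0.11 and 0.77 ± 0.16. On the lower side stood Il33, Pmp22, a myelin protein best known from peripheral nerve (246, 251, 296, 213 and 219 CPM against 86.7 to 126 CPM, adjusted p = 0.000148), Grm3, a glutamate receptor coupled to inhibitory G proteins (303 to 346 CPM against 132 to 211 CPM, adjusted p = 0.00049), and the protease Klk6 (-0.85 ± 0.19). Ptgds, which makes prostaglandin D2, did not pass (5792 ± 1784 against 4295 ± 1084 CPM, adjusted p = 0.276). The groups did not overlap for S100b, Pmp22 or Grm3.

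The 8 most abundant genes called outside the 3 lists, named below, were lower in R6/2. Sept7, Qk, Gatm and Glul, which are not among the 8, were chosen after their values were seen and are given first. Sept7, a cytoskeletal septin, was at 2190, 2055, 2247, 2221 and 2304 CPM in wild-type and 1201 to 1425 CPM in R6/2 pools, 1.7-fold lower (-0.77 ± 0.07, adjusted p = 4.43e-05). Qk, the RNA-binding protein quaking that controls splicing in oligodendrocytes, was at 2964 to 3431 CPM against 1313 to 2198 CPM (-0.75 ± 0.11, adjusted p = 0.00264). Gatm, the first enzyme of creatine synthesis, was at 2349 to 2668 CPM against 1393 to 1720 CPM (-0.63 ± 0.07, adjusted p = 0.000226), and Glul, glutamine synthetase, at 852 ± 140 against 506 ± 94.6 CPM (adjusted p = 0.00649). The 8 most abundant called genes were Scd2, Tubb4a, Aplp1, Syt11, Ywhaq, Cd81, Gpm6b and Lamp1, each lower, with log2 fold changes from -0.55 for the desaturase Scd2 to -0.24 for Aplp1, a relative of the amyloid precursor. With library sizes alone these became -0.35 and -0.02, and each of the 8 calls was lost (adjusted p from 0.0987 for Scd2 to 0.82 for Aplp1). Sept7, Qk, Gatm and Glul were still called lower with library sizes alone. Lamp1, Gpm6b and Cd81 were called in all 11 fits that left out 1 pool and Ywhaq in 10. The calls of Syt11, Scd2, Tubb4a and Aplp1 were kept in 5, 4, 3 and 2, with adjusted p of up to 0.112.

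The largest falls among genes reaching 5 CPM were of lower level. Klrg2, a lectin-like receptor gene, was at 2.54, 2.8, 6.14, 12.8 and 12.1 CPM in wild-type and 0.177 to 1.66 CPM in R6/2 pools (-2.75 ± 0.56, adjusted p = 0.0133). Sh2b2, an adaptor of insulin signalling, was at 5.17, 4.04, 3.57, 14.6 and 30.5 CPM against 2.12 to 2.71 CPM (-2.28 ± 0.50, adjusted p = 0.0194). In both genes wild-type replicates 4 and 6 were the high pools, and the other wild-type pools still lay above all R6/2 pools. Plppr3, a phospholipid phosphatase-related gene of growing axons, Slc12a8, a cation-chloride cotransporter relative, Serpinb1a, a protease inhibitor, and Pdxk, which activates vitamin B6, fell by 1.42, 1.33, 1.15 and 1.11 on the log2 scale and were called in all 11 fits. Gm19963 fell by 1.62 and Nhlrc4 by 1.23, the latter kept in 4 of 11 fits. Fam83d, a spindle protein gene, was at 35.5 to 140 CPM against 24.5 to 51.2 CPM and overlapped (-1.45 ± 0.29, adjusted p = 0.0118).

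Of 241 tested solute carriers 9 were higher, 11 lower and 221 not called, beside 2.33% of all genes in each direction. The counts were 25 and 4 with library sizes alone. Slc38a2, a glutamine and neutral amino acid transporter, was at 945, 990, 1052, 1318 and 1552 CPM in wild-type and 345 to 702 CPM (median 600) in R6/2 pools, 2.05-fold lower (-1.04 ± 0.17, adjusted p = 0.00443). Slc5a3 for inositol (-0.89 ± 0.22, kept in 3 of 11 fits) and Slc6a6 for taurine (-0.44 ± 0.10), which like Slc38a2 carry organic osmolytes, and the 2 chains of the cystine exchanger, Slc3a2 (-0.57 ± 0.10) and Slc7a11 (-0.76 ± 0.17, kept in 7 of 11), were also lower. With library sizes alone Slc38a2 was still called lower (adjusted p = 0.00649). The calls of Slc5a3, Slc6a6 and Slc3a2 were lost (adjusted p = 0.0506, 0.147 and 0.0634), as was that of Slc7a11. On the higher side were Slc22a17, a lipocalin receptor (640 ± 49.5 against 842 ± 41.9 CPM, adjusted p = 0.0066), Slc45a3 (1.00 ± 0.20), the bicarbonate transporter Slc4a10 (1.69 ± 0.37) and the dicarboxylate transporter Slc13a3 (1.13 ± 0.24). Without R6/2 replicate 1, 13 solute carriers were higher and 20 lower.

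Signalling through cyclic nucleotides and G proteins had 3 of 73 members higher and 5 lower, beside 2.33% of all genes in each direction. With library sizes alone the balance reversed, to 13 higher and 3 lower. Gnaz, an inhibitory G protein subunit, was at 2.17 to 3.49 CPM in wild-type and 10.6 to 17.8 CPM in R6/2 pools (2.14 ± 0.21, adjusted p = 0.000121). The phosphodiesterase Pde3a was higher (1.67 ± 0.27), with R6/2 replicate 5 far above the rest at 28.4 CPM. Lower were Pde4b (577 ± 15.0 against 404 ± 35.8 CPM, adjusted p = 0.00191), Pde8a (-0.70 ± 0.12) and the adenylyl cyclase Adcy5, which is also abundant in striatal neurons (228 ± 17.6 against 131 ± 24.7 CPM, adjusted p = 0.003). The potassium channel genes Kcnk13 and Kcna1 fell by 1.02 and 0.58, while Kcnh7 was higher by 0.81 ± 0.19 (kept in 4 of 11 fits). Junction genes included Cldn14, which rose from 9.36 ± 1.63 to 28.1 ± 4.54 CPM (adjusted p = 0.000154), and the connexin Gjc3, which fell from 889 ± 76.9 to 541 ± 85.8 CPM (adjusted p = 0.00249).

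Chaperone and unfolded protein response genes called at 6 weeks were mostly lower, where 2.33% of all genes were called in each direction. This balance depended on the scaling, as given below. Of 27 chaperones 0 were higher and 2 lower (1 and 4 without R6/2 replicate 1), Dnajb2 (704 ± 43.1 against 516 ± 25.5 CPM, adjusted p = 0.00225) and Hspa4l (-0.83 ± 0.21, kept in 5 of 11 fits), with a list median of -0.45 and, with library sizes alone, -0.24. Of 29 genes of the unfolded protein and integrated stress responses, the asparagine synthetase Asns was higher (7.37 ± 1.66 against 15.1 ± 2.0 CPM, adjusted p = 0.0057) and 4 were lower, with Hsp90b1, an endoplasmic reticulum chaperone, at -0.54 ± 0.11. With library sizes alone 2 of the 29 were called higher and 0 lower, and 2 of the 27 chaperones were called higher and 1 lower. The antioxidant list of 28 had Nqo1 higher (2.02 ± 0.78 against 6.85 ± 1.48 CPM, adjusted p = 0.00691) and Gstp1 lower (-0.53 ± 0.13, kept in 2 of 11 fits). This list had 1 higher and 3 lower calls without R6/2 replicate 1, and 6 higher and 0 lower with library sizes alone. The cold-inducible RNA-binding genes Cirbp (51.9 ± 14.8 against 129 ± 31.8 CPM, adjusted p = 0.00328) and Rbm3 (25.1 ± 7.98 against 54.7 ± 17.3 CPM, adjusted p = 0.0146) were both higher. Histone genes had 5 of 40 higher and 0 lower, led by H2afy2 (0.74 ± 0.12, adjusted p = 0.00371). With the mean level of other cell types' markers as a covariate 3 histone genes passed, each higher.

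Lists without any call were voltage-gated sodium and calcium channels (24 tested), clock genes (22) and iron handling genes (18), each by edgeR; without R6/2 replicate 1 the first had 1 higher and the last 1 lower. Synaptic adhesion genes had 2 of 61 higher, Cadm1 (143 ± 15.1 against 225 ± 29.2 CPM, adjusted p = 0.00414) and Nrxn2 (0.54 ± 0.12, kept in 5 of 11 fits), which is near the 2.33% of all genes; 4 were higher without R6/2 replicate 1. Cadherins had 3 of 76 higher and 1 lower. The zinc finger genes named Zfp, the largest list, had 2 of 347 higher and 2 lower, and 4 and 4 without R6/2 replicate 1.

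**Figure D4:**
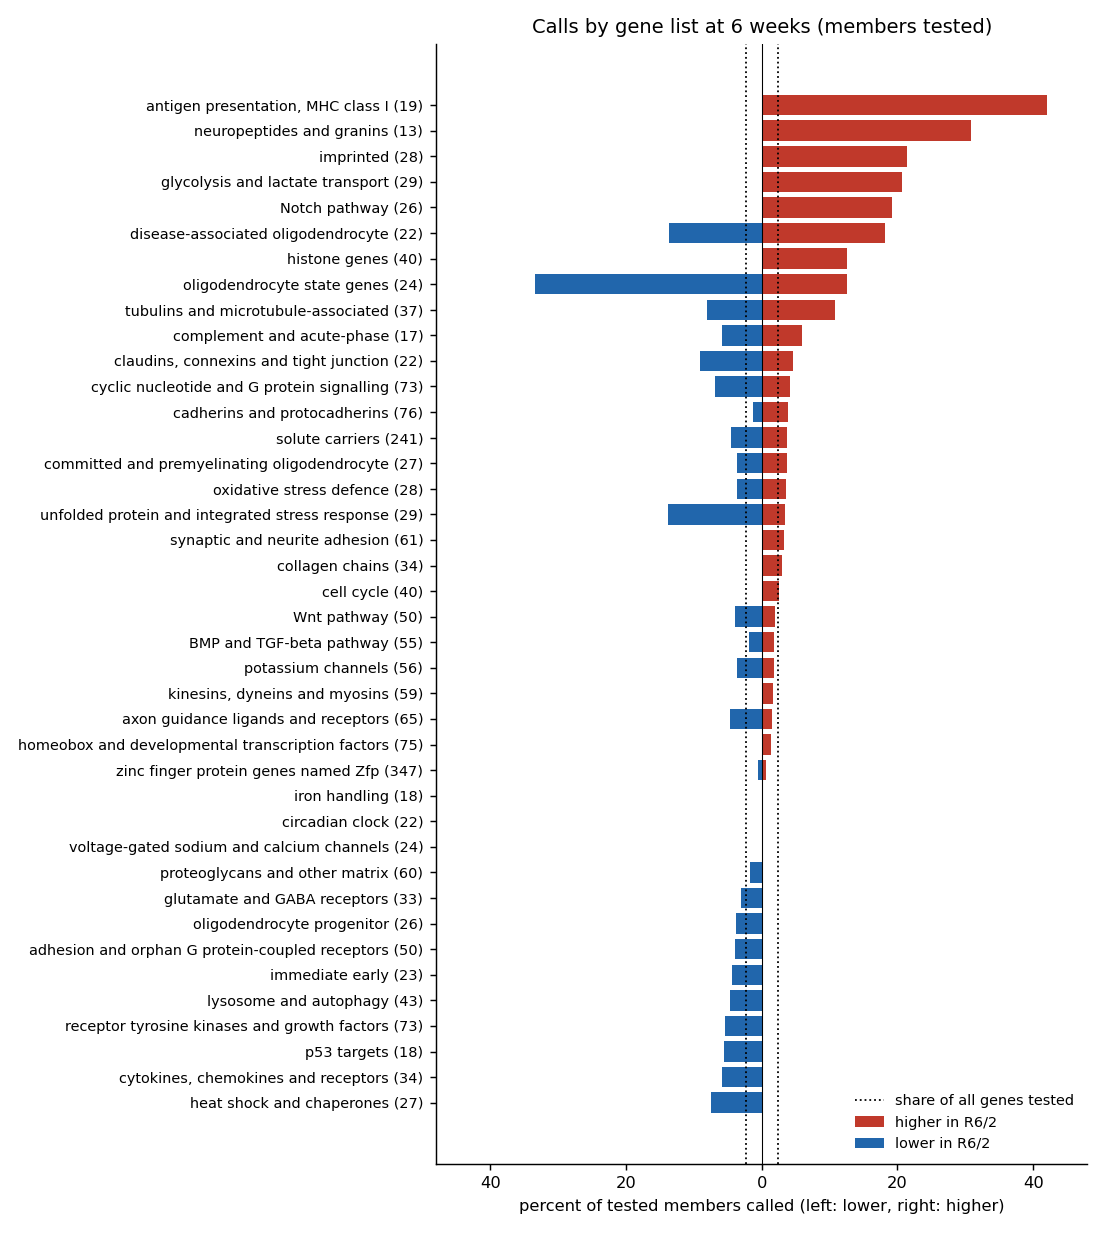
Percent of tested members called higher (red, right) or lower (blue, left) for 40 gene lists, with the number tested in brackets; dotted lines mark the share of all genes tested (2.33% in each direction). Antigen presentation has 8 of 19 higher and 0 lower, and the oligodendrocyte state genes have 3 of 24 higher and 8 lower.

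The 6-week changes were compared with those at 12 weeks, measured in other pools of the same line. At 12 weeks the test called 5704 of 14952 genes (38.1%), with 2848 rises (19%) and 2856 falls (19.1%). Of the 322 genes called higher at 6 weeks outside the 3 lists and tested at 12 weeks, 268 (83.2%) were called higher again, and of 319 called lower 299 (93.7%) were called lower again. Those are 9.58% of the 2797 genes higher and 10.7% of the 2802 genes lower at 12 weeks outside the lists. Age cannot be told apart from sequencing batch here, since the labels give no batch.

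Whether the effect differed with age was tested with an interaction term over the 4 groups. It passed for 997 of 16513 genes (6.04%), 470 positive (2.85%) and 527 negative (3.19%), and for 1784 without R6/2 replicate 7 of the 12-week group. Among genes higher at 6 weeks outside the lists, 49 had a larger and 21 a smaller effect at 12 weeks, and among genes lower at 6 weeks 104 had a larger and 4 a smaller effect. The interaction did not pass for 255 of the higher and 211 of the lower genes. With library sizes alone the interaction was positive for 733 genes and negative for 279.

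Several rises were larger at 12 weeks by this test. Fxyd6, a regulator of the sodium pump, rose by 1.90 ± 0.39 at 6 weeks and 4.82 at 12 weeks (interaction adjusted p = 0.000137), Brca1, a DNA repair gene, by 1.63 ± 0.42 and 4.57 (0.000106) and Serpina3n by 1.67 ± 0.27 and 3.73 (0.000121). Uchl1 rose by 2.07 and 3.62, the small G protein Rnd2 by 0.68 and 1.71, and Slc22a17 by 0.39 and 1.18. The Brca1 call at 6 weeks was kept in 3 of 11 fits. Falls that were larger at 12 weeks were those of Cers2, an enzyme of sphingolipid synthesis, Bin1, which bends membranes, Fez1, a transport adaptor, and Efhd1, a mitochondrial calcium-binding protein. Efhd1 was at -0.86 ± 0.08 at 6 weeks and -1.79 at 12 weeks, and Bin1 at -0.43 ± 0.07 and -1.23.

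A smaller set of changes was weaker or of opposite sign at 12 weeks. These genes, like those counted above by interaction, were picked by their 6-week calls, which favours large 6-week estimates. The interaction used the same 6-week pools. For 25 genes called at 6 weeks the interaction ran against the 6-week direction, and 3 genes were called in opposite directions at the 2 ages. Scarb1, a receptor of high-density lipoprotein, was 0.49 ± 0.10 higher at 6 weeks and lower at 12 weeks (-0.39, adjusted p = 0.00689; interaction adjusted p = 0.000467). Hmgn2, a nucleosome-binding protein, went from 0.70 ± 0.16 to -0.46 (interaction adjusted p = 0.00286) and Cyp2j12 from 0.44 ± 0.10 to -0.37 (0.000605). The 6-week calls of Hmgn2 and Cyp2j12 were kept in 6 and 4 of the 11 fits that left out 1 pool, and that of Scarb1 in all 11. Osbpl5 was called higher at 12 weeks too, with a smaller effect (1.43 against 2.22, interaction adjusted p = 0.00458). Klhdc8a and Gipr, the receptor of the gut hormone GIP, were called at 6 weeks (1.18 ± 0.24 and 0.96 ± 0.21) and not at 12 weeks (-0.29 and -0.46).

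**Figure D5:**
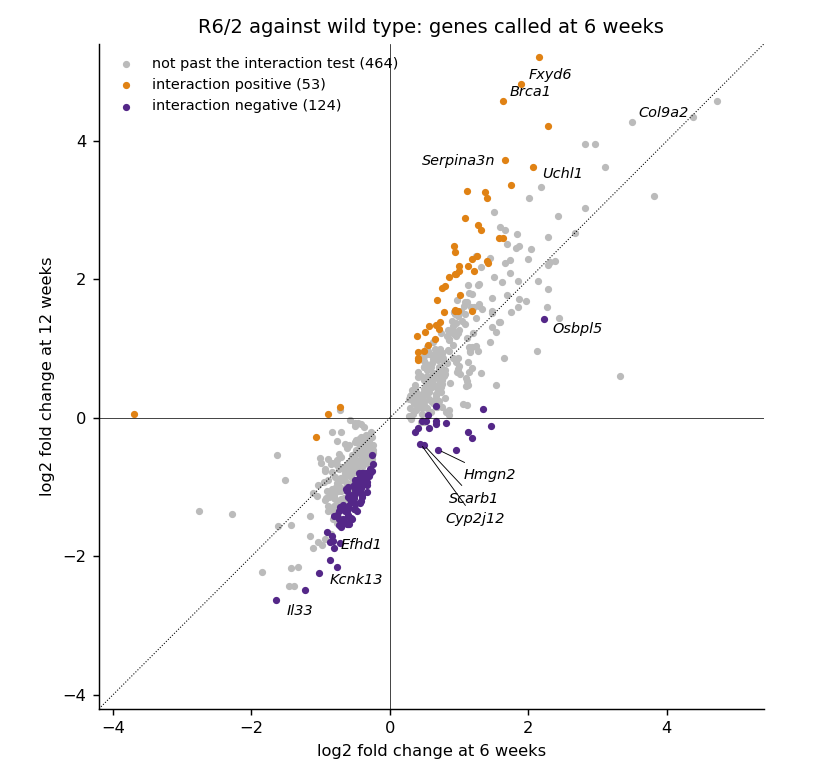
Log2 fold change at 12 weeks against that at 6 weeks for genes called at 6 weeks outside the 3 lists; the dotted line marks equal effects, and orange and purple mark a positive or negative age by genotype interaction. Most purple points lie below the line among genes lower at 6 weeks, and Scarb1, Hmgn2 and Cyp2j12 lie above 0 at 6 weeks and below 0 at 12 weeks. Gm12695 lies outside both axes.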

How the data were processed

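RNA of sorted PDGFRA-EGFP+ striatal pools was sequenced on an Illumina HiSeq after TruSeq RNA v2 preparation, per the labels' protocols. The authors deposited expected counts per gene, made with STAR 2.5.2b and RSEM 1.3.0, per the submitters' processing notes; the mouse build is not given in the sources used here. Of the 6-week values 9.86% were not whole, and all were rounded. Totals per pool were 34943456 to 48634226 expected counts, and errors and p-values measure the spread between these pools. The labels do not tie replicate numbers across groups, so the pools were compared unpaired, although a litter could give a pool of each genotype.

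Genes were named from GENCODE M21 (GRCm38), which held 53620 of 53801 identifiers. Genes with too few counts were dropped with filterByExpr, counts were scaled by TMM, and R6/2 and wild-type pools were compared with edgeR 4.0.16 (R 4.3.3), robust quasi-likelihood test, Benjamini-Hochberg threshold 0.05. The 6-week fit used its 11 pools; the interaction used the 4 groups of the R6/2 line. On counts simulated for the 6-week comparison over 14378 genes, 49% of genes raised 2-fold and 62.5% of genes lowered to 0.5-fold were recovered, 74% at 4-fold and 73.3% at 0.25-fold, with 8 false calls among 14186 unchanged genes. Alternatives were DESeq2 1.42.0, limma 3.58.1 (voom), other scalings, filters, covariates, a replicate block and leaving out each pool; library size scaling was chosen after seeing the data.

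The groups, gene lists and rules were chosen with earlier results of these data known. The rule for named genes took, among called genes outside the 3 lists with a group mean of at least 5 CPM, the 12 largest rises, the 12 largest falls and the 8 most abundant genes. It further took up to 4 called members per list, the genes called in opposite directions at both ages and the 6 strongest interactions in each direction. Htt, Gm12695, Pdgfra, Tcf7l2, Il33 and Col9a2 were named irrespective of rank. Osbpl5, Olfm1, Sept7, Qk, Gatm, Glul, Cirbp, Rbm3, Gapdh, Tap1, Psmb8, Jag1, Hes5, Ptgds, Klhdc8a, Gipr and list members beyond the first 4 were chosen after their values were seen. One gene is not reported here.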

Additional observations from a re-analysis of the deposited data

Results flagged for a closer look

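In 170 named genes and 339 groups of pools, 30 groups had a highest or lowest pool set apart from the others by Dixon's gap criterion, which chance passes in about 1 of 20 groups. R6/2 replicate 1 was that pool in 15 of the 30. The genes set apart in it were Acy3 at 58.2 CPM, Scg5 at 171 CPM, Gpm6b at 2679 CPM, Syn1 at 36.3 CPM, Hsp90b1 at 333 CPM, Tyro3 at 269 CPM, Il1rap at 227 CPM, Gstp1 at 1624 CPM, Scd2 at 4424 CPM, Erbb3 at 95.4 CPM, H3f3b at 951 CPM, Osbpl5 at 89.1 CPM, Gapdh at 1046 CPM, Ptgds at 6459 CPM and Qk at 1313 CPM. The mitochondrial share, TMM factor and principal component of the same pool are given above, and their part in these values was not tested. In other R6/2 pools the values set apart were Usp18 at 33.5 CPM in replicate 4, Pde3a at 28.4 CPM in replicate 5, Ndn at 126 CPM in replicate 4, Fam83d at 51.2 CPM in replicate 5, Sema3e at 9.51 CPM in replicate 5 and Efna1 at 35.6 CPM in replicate 5. In wild-type pools they were Col9a2 at 6.38 CPM in replicate 4, Gbp6 at 0.529 CPM in replicate 6, Lad1 at 0.473 CPM in replicate 6, Zfp706 at 759 CPM in replicate 1, Slc30a2 at 2.42 CPM in replicate 4, Pcsk2 at 21.5 CPM in replicate 6, Il1rap at 725 CPM in replicate 4, Notch1 at 17.4 CPM in replicate 1 and Psmb8 at 1.74 CPM in replicate 4.

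The effect of genotype differed between 6 and 12 weeks by the interaction term for 61 of the named genes, 23 positive and 38 negative, where a value is the 12-week minus the 6-week log2 fold change as estimated in the fit of the 4 groups. Positive values were Pkm 0.38, Uchl1 1.56, Cldn14 1.03, S100b 0.96, Irf9 1.41, Psme1 0.57, Rtp4 1.82, Scg5 0.62, Serpina3n 2.08, Rnd2 1.04, Slc22a17 0.80, Arpp21 1.62, Mest 1.07, Fxyd6 2.93, Cdh2 0.74, Ldhb 0.49, Hist1h2be 0.52, Notch1 1.14, Brca1 2.96, Cpe 0.57, Tap1 2.18, B2m 1.56 and Nnat 1.81. Negative values were Car2 -0.64, Efhd1 -0.92, Il33 -0.98, Qdpr -0.85, Mbp -0.29, Grm3 -0.71, Mal -1.01, Kcnk13 -1.21, Fa2h -0.98, Pde4b -0.43, Dnajb2 -0.56, Gjc3 -0.55, Adcy5 -0.61, Zfp706 -0.55, Bin1 -0.79, Cldn11 -0.91, Slc9a3r2 -1.07 and Smad7 -0.67. Further negative values were Kcna1 -0.56, Phlda3 -0.63, Unc5b -0.65, Fez1 -0.62, Cd81 -0.42, Cers2 -0.53, Scarb1 -0.87, Ywhaq -0.50, Dhcr7 -0.63, Gpr37 -0.64, Hmgn2 -1.15, Syt11 -0.47, Cyp2j12 -0.80, Nhlrc4 -1.24, Tubb4a -0.54, Efna1 -0.44, Osbpl5 -0.77, Sept7 -0.63, Gatm -0.39 and Slc6a6 -0.42.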

How the results depend on the processing

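The 695 calls at 6 weeks (347 higher and 348 lower) became 1268 with DESeq2 (641 and 627) and 1474 with library size scaling alone (1346 and 128), and the cause was not tested. Leaving out 1 pool gave 448 to 1008 calls, 218 to 468 higher and 215 to 540 lower; the counts furthest below were 448 without wild-type replicate 2, 451 and 452 without R6/2 replicates 4 and 3, and 461 without wild-type replicate 6, while 540 were lower without R6/2 replicate 1. With the replicate number as a block, 224 genes were called (108 higher and 116 lower). That fit left out R6/2 replicate 5, which has no wild-type pool of its number. Correlations between same-numbered pools were -0.13 to 0.07 over 5 pairs, and 0 R6/2 pools correlated best with their own number. So few pairs cannot show whether a number marks a shared litter, and the main fit used no pairing. At 12 weeks library size scaling gave 7058 higher and 1152 lower, and leaving out 1 pool gave 5170 to 7026 calls (2623 to 3550 higher and 2547 to 3476 lower). The 997 interactions became 587 with the replicate block (265 positive and 322 negative), 434 with all 8 groups in 1 fit (194 and 240) and 733 positive with 279 negative by library size, and the marker covariate gave 290 positive. Leaving out 1 pool gave 729 to 1784 interactions (344 to 640 positive and 385 to 1144 negative), with 1784 without R6/2 replicate 7 at 12 weeks. The named genes kept their sign under the alternatives run, but not always their strength. With the replicate block 82 of their results were weaker and 88 the same. With library sizes alone 33 were weaker, 2 stronger and 136 the same. The balance of interactions, more of them negative with TMM, turned to more positive by library size and by relative log expression (498 positive and 471 negative). Calls were fewer at low levels, 1.53% of genes under 10 CPM against 14.8% from 100 CPM, and the part of counting depth in this was not tested.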

Other observations

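Cdkn1c and Osbpl5, both much higher in R6/2 at 6 weeks, lie 228 kb apart on mouse chromosome 7 (143458339 to 143461050 and 143688762 to 143756985, GRCm38), in a region known for imprinted genes. Within 0.5 Mb on each side, 12 other genes were tested and 2 were called by edgeR, both lower: Cd81, a tetraspanin (-0.43 ± 0.08, adjusted p = 0.0115), and Dhcr7, an enzyme of cholesterol synthesis (-0.56 ± 0.12, adjusted p = 0.0188). Nap1l4 and Cars, which lie between Cdkn1c and Osbpl5, were at -0.14 ± 0.08 and -0.10 ± 0.15 and did not pass (adjusted p = 0.39 and 0.823). Tnfrsf22, also between them, was at -0.63 ± 0.37 (adjusted p = 0.451), and the non-coding RNA Kcnq1ot1 at 0.56 ± 0.40 (adjusted p = 0.557). Of all genes tested, 4.66% were called in either direction. This stretch was chosen after its values were seen.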
